A study of Mus musculus with 51 samples.

Results

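The 67 genes described here encode the classical guidance cues of the semaphorin, ephrin, Slit and netrin families and their receptors. They were taken as every gene of these families named by a probe set with a single gene symbol, which gave 72 probe sets. Where a gene had several, the probe set with the highest mean was used. They make up 67 of the 19938 genes that could be named on the array. Among them were 20 semaphorins, their 9 plexin and 2 neuropilin receptors, 8 ephrins with 13 Eph receptors, 3 Slits with 4 Robo receptors, and 4 netrins with 4 Unc5 receptors. The membership rule used names only, and no measured value chose between genes.

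Guidance cues were first described on growing axons. A cue on a neighbouring cell or in the matrix binds a receptor, which acts through small GTPases to make the cell turn, retract or hold its place. Class 3 semaphorins are secreted and bind neuropilins, which signal through plexins, while the other semaphorins measured here are held in the membrane. Ephrins and Eph receptors are both membrane-bound, so that they act between touching cells and can signal in either direction. Slits are secreted ligands of Robo receptors, and netrins are laminin-like proteins bound by Unc5 receptors, among others. Stromal cells of blood-forming tissues carry many of these molecules, and several are known to affect adhesion and movement of hematopoietic cells.

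The study used stromal clones, lines grown from single cells of blood-forming tissues of the mouse, that are labelled by how well they keep hematopoietic stem and progenitor cells (HSPCs) going ex vivo. Transcripts were measured in total RNA on Affymetrix mouse gene 1.0 ST arrays, in 17 groups of 3. Confluent cultures of 13 lines gave 39 arrays. The aorta-gonad-mesonephros region (AGM, the site in the embryo where stem cells arise) gave the supportive lines UG26.1B6, AM14-1C4 and AM30-3F4 and the less-supportive line UG26.3B5, all from embryonic day 11 and strain (CBAxC57BL/10)F1. Fetal liver (FL) of embryonic day 14.5 and strain C57BL/6 gave the supportive lines AFT024 and 2012 and the non-supportive lines BFC012, BFC and AFT011. The label of BFC carries no clone number, and it is treated as a group of its own. Adult bone marrow (BM) gave the supportive BMC9 and less-supportive BMC10 of strain H2ts6 and the supportive 14F1-1 of strain BALB/c. Fetal calvaria gave the supportive line OP9 of strain (C57BL/6xC3H)F2-op/op. Cultures were kept at 33 °C on gelatin-coated plates, apart from 14F1-1 and 2 of the 3 OP9 arrays, which are labelled 37 °C. The other 12 arrays hold AFT024 and BFC012 stroma that had been cultured for 4 days alone or together with KLS cells and then sorted for absence of the leukocyte protein CD45. KLS cells are c-Kit+Sca1+Lin- bone marrow cells, among which stem cells are enriched. Each line is 1 clone, so a difference between 2 lines is a difference between 2 clones. Whether the 3 arrays of a group came from separate cultures is not given in the labels, and the p-values therefore cover the spread between arrays, which may be technical.

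Values are log2 signals, and 1 unit is a 2-fold difference. The arrays had been normalized in 4 sets with different scales: the UG26, AFT024, BFC012 and BMC lines, OP9 with BFC, the sorted stroma, and the 14F1-1, 2012, AFT011, AM14-1C4 and AM30-3F4 lines. Levels are therefore compared only within a set, and never between genes. Array medians lay between 5.04 and 7.14 over the 4 sets. In sorted stroma the arrays numbered 1 stood somewhat apart. In 3 of the 4 sorted groups they had the lowest mean correlation with their own group, 0.976 to 0.980, against 0.983 to 0.986 for the other arrays of those groups. A gene is said to pass, rise or fall in a comparison where limma gave a Benjamini-Hochberg adjusted p below 0.05 over all 19938 genes. In RNA from whole cultures, fewer cells carrying a transcript and less transcript per cell cannot be told apart.

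The labelled cell type was checked against marker genes. All 9 mesenchymal markers, among them Col1a1 and Vim, lay above the first quartile of values in all 17 groups. At least 8 of the 9 lay above the median in each group. Of 10 hematopoietic markers 4 to 8 lay above the first quartile. None lay above the median of its arrays in any group, apart from Lyz2 in AM14-1C4 at 9.36. Of 8 endothelial markers 1 lay above the median in each group, and of 6 measured neural markers 0 to 2. Snap25 read 8.27 in AM14-1C4 and Tubb3 8.23 in sorted AFT024 without KLS cells. Ptprc, which encodes CD45, read 4.28 to 4.38 in the 4 sorted groups, beside a first quartile of 4.37. Among 7 epithelial and mesothelial markers, Upk3b and Wt1 were high in some fetal liver lines and Msln in AFT024 (11.05) and BMC10 (10.64), and their values are given beside the comparisons they move with.

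Most guidance genes had a signal above the dimmest genes in at least 1 line. In the set of the UG26, AFT024, BFC012 and BMC lines, 64 of the 67 lay above the first quartile of all values in at least 1 group and 56 in all 6. In the set with 14F1-1 the counts were 65 and 62. In OP9 and BFC 61 members, and in sorted stroma 62, lay above it. Epha5 and Epha6 lay below it in every group of every set. Within each family, the member with the highest mean over the confluent arrays was Plxna1 for the plexins (11.01), Nrp1 for the neuropilins (9.92), Unc5b for the netrin receptors (9.72), Sema3c for the secreted semaphorins (9.50), Efnb2 for the ephrin-B ligands (9.14) and Efna5 for the ephrin-A ligands (9.07). Epha2 (9.48) and Ephb4 (8.40) were the ones for the Eph receptors, and Slit2 (8.46) and Robo1 (6.42) for Slits and Robos. The netrin was Ntn1 (7.28), and the membrane semaphorins of classes 4 to 7 were Sema4b (8.46), Sema5a (7.72), Sema6b (7.02) and Sema7a (6.85). These means name the probe sets and do not rank the genes, since probes differ in brightness.

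A first question was how far the guidance genes vary from line to line. Among the 6 lines of the first set, 47 of 67 members passed limma's moderated F-test, against 55.4% of all genes, and among the 5 lines of the set with 14F1-1 45 passed, against 56.9%. The spread between lines was wider than for most genes. In the first set the range from the lowest to the highest line mean had a median of 0.69 over the members and 0.38 over all genes. In that set 29 members (43.3%) passed and spanned at least 2-fold, against 14.4% of all genes. In the set with 14F1-1 the median ranges were 0.90 and 0.41, and 30 members (44.8%) passed with at least a 2-fold span, against 18.9% of all genes. The same 43 members passed in both sets and 18 in neither. The overlap over all genes was not computed, so both counts describe the members only. The 18 were Efnb3, Epha1, Epha5, Epha6, Epha8, Epha10, Ephb1, Ntn5, Plxnb3, Plxnc1, Robo2, Robo3, Robo4, Sema3b, Sema4d, Sema5b, Unc5a and Unc5d. All Robo receptors but Robo1 are among them, with the netrin receptors Unc5a and Unc5d.

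**Figure D1:**
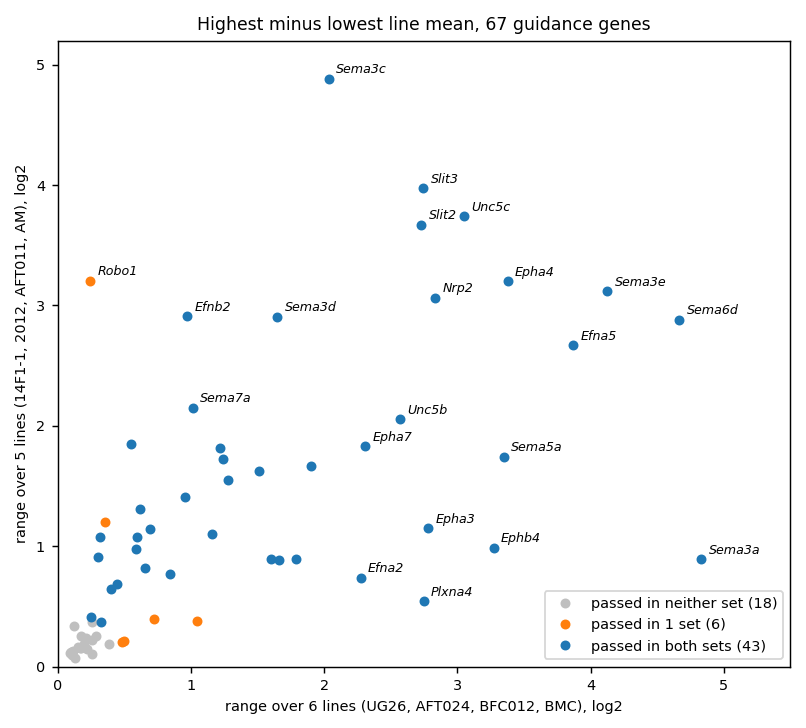
Each point is 1 of the 67 guidance genes, placed by the difference in log2 signal between its highest and lowest line mean among the UG26, AFT024, BFC012 and BMC lines (x axis) and among the 14F1-1, 2012, AFT011 and AM lines (y axis). Blue genes passed the F-test in both sets (43), orange in 1 set (6) and grey in neither (18). Sema3a spans 4.83 on the x axis and Sema3c 4.89 on the y axis.

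Several guidance genes set single lines or pairs of lines apart. In the first set lines of different tissues also differ in strain, so tissue, strain and clone cannot be told apart. Sema3a encodes a secreted semaphorin that binds neuropilin 1. It read 5.42, 5.92 and 5.73 in UG26.1B6 and 5.39, 5.61 and 5.33 in UG26.3B5, against means of 8.88 in AFT024, 10.28 in BFC012, 10.10 in BMC9 and 10.02 in BMC10. The arrays of both AGM lines of this set thus lay below all arrays of the other 4 lines. In the other set the AGM lines did not stand apart in this way, with 11.23 in AM14-1C4 and 10.52 in AM30-3F4 beside 10.91 to 11.41 in the remaining lines. The 2 UG26 lines were also high in Sema6d, a membrane semaphorin that binds plexin A1. Its means were 10.41 ± 0.192 and 9.65 ± 0.493 (SD, n = 3 each) in UG26.1B6 and UG26.3B5, against 5.74 to 5.93 in the other 4 lines. Plxna4, a plexin that serves class 3 and class 6 semaphorins, was also higher in the UG26 lines, with means of 8.88 in UG26.1B6, 9.16 in UG26.3B5 and 6.41 to 6.62 in the rest. In BM lines Sema3e, the secreted ligand of plexin D1, had its lowest values of the set, 7.44 in BMC9 and 5.89 in BMC10, against 8.92 to 10.02 in the other 4 lines.

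The set with 14F1-1 held further line-specific levels. Robo1, a Slit receptor, read 9.60, 9.75 and 9.58 in 14F1-1 and 8.87, 8.81 and 8.75 in AM30-3F4, against means of 6.44 to 7.07 in 2012, AFT011 and AM14-1C4. The 3 Robo1 arrays of each of these 2 lines lay above every array of the other 3 lines. In the first set Robo1 did not pass the F-test and its means spanned only 5.30 to 5.55. Unc5c, a netrin receptor, was at 10.14 ± 0.0606 in AM30-3F4 and 7.84 ± 0.266 in AM14-1C4 (SD, n = 3 each), with 6.40 to 6.76 in the other lines of the set. Sema4f, a membrane semaphorin, was high in AM30-3F4 alone, at 8.33, while the other 4 lines read 6.48 to 6.61. The 2 AM lines also differed in secreted cues. Slit3 was at 10.93 in AM14-1C4 and 7.96 in AM30-3F4, while Sema3c was at 6.67 and 8.34, both below the 10.73 to 11.55 of the other lines of the set.

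**Figure D2:**
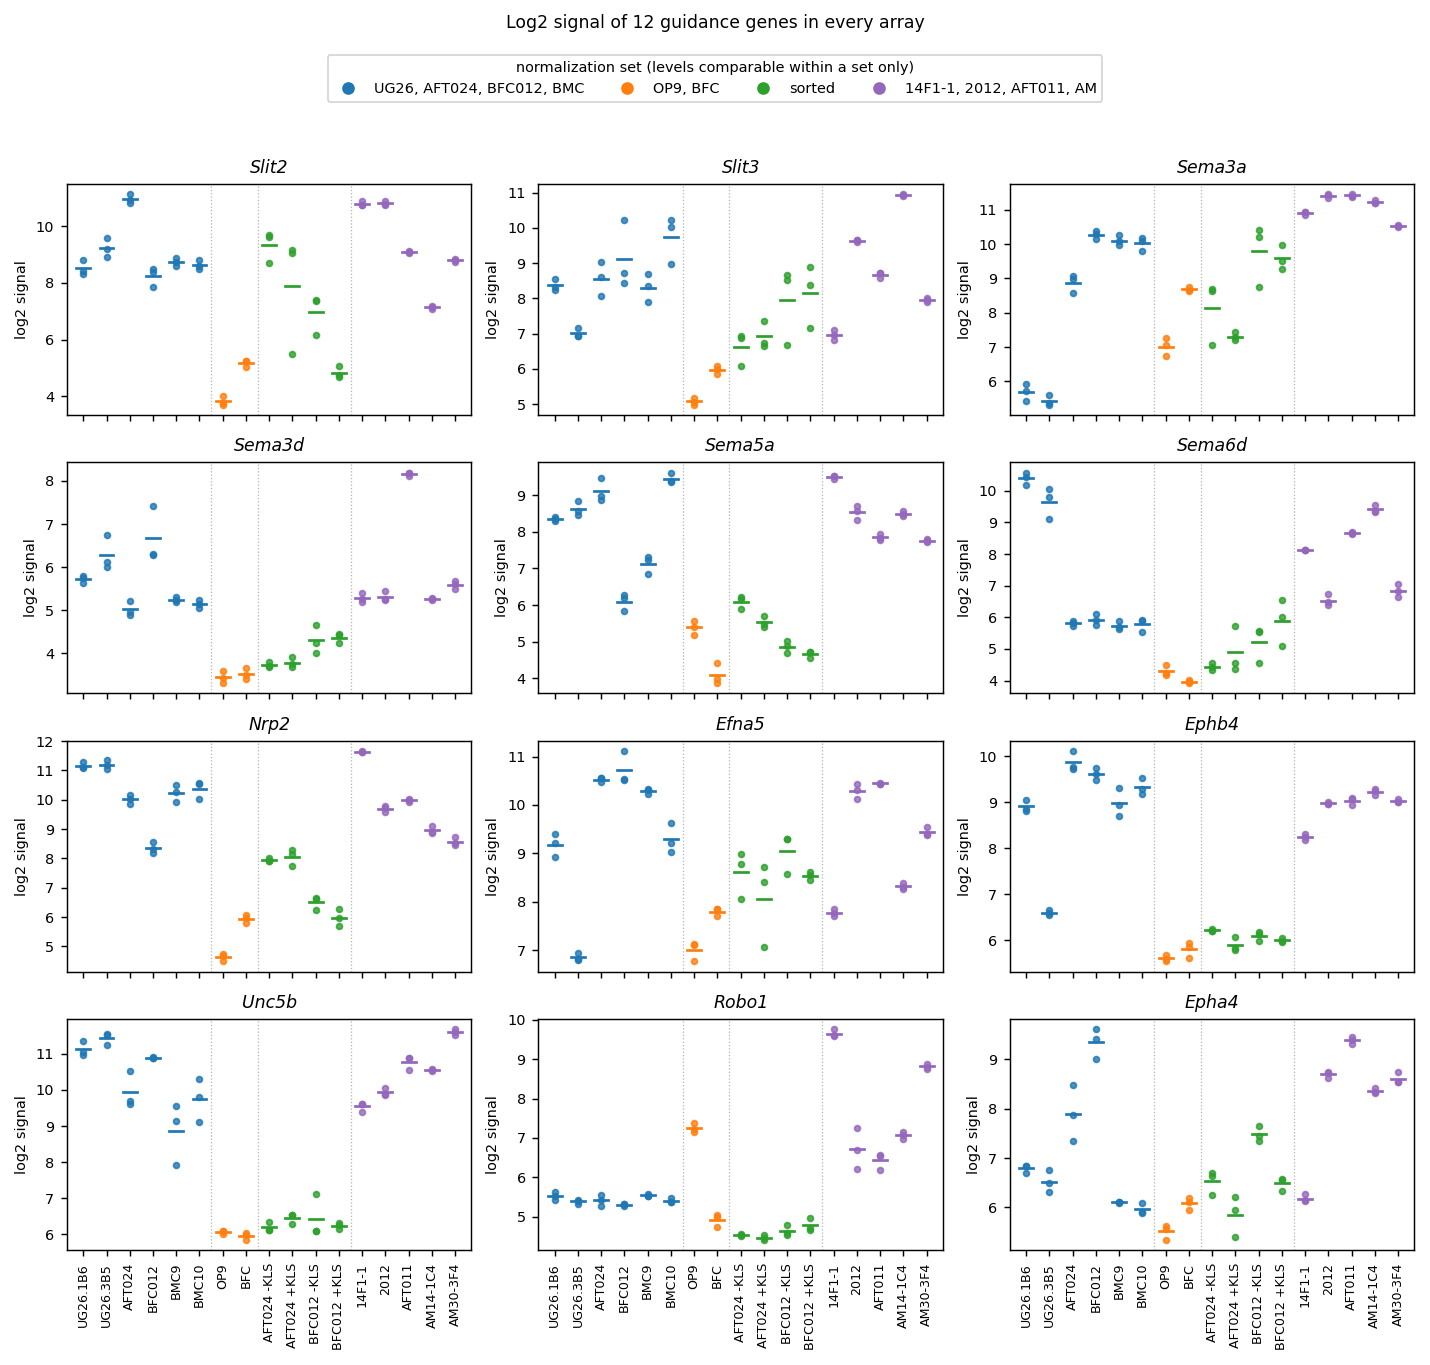
Log2 signal of 12 guidance genes, with 1 point for each array and a bar for each group mean, in the 17 groups on the x axis. Colours and dotted lines separate the 4 normalization sets, and levels can be read only within a set. Sema6d is high in the 2 UG26 lines, Robo1 in 14F1-1, and Ephb4 is low in UG26.3B5.

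The AGM pair compared the supportive UG26.1B6 with the less-supportive UG26.3B5. Guidance genes that rose in UG26.1B6 were led by an ephrin and an Eph receptor. Of the 67 members 11 passed, 8 higher and 3 lower in UG26.1B6, against 8.56% of all genes (4.34% higher, 4.22% lower), and 3 members passed with at least a 2-fold difference, against 1.01%. The median difference was 0.07 over the members and 0.03 over all genes. Efna5, a membrane-anchored ligand of EphA receptors, read 9.40, 9.22 and 8.92 in UG26.1B6 and 6.93, 6.83 and 6.80 in UG26.3B5. The groups lay far apart, a difference of 2.33 (SE 0.13, adjusted p = 2.08e-15, limma). Ephb4, the receptor of ephrin B2, read 8.82, 8.86 and 9.05 against 6.54, 6.66 and 6.60, a difference of 2.31 (SE 0.112, adjusted p = 6.32e-17, limma). For Ephb4 it was UG26.3B5 that stood apart, since the other 5 lines of the set had means of 8.91 to 9.87. Slit3, a secreted Robo ligand, rose by 1.37 (SE 0.28) reading 8.56, 8.25 and 8.31 against 6.93, 7.15 and 6.94, and Sema3f, a secreted semaphorin that binds neuropilin 2, by 1.00 (SE 0.192). Smaller rises were those of Sema6d (0.76), Efna2 (0.62), Unc5c (0.43) and Plxnb2 (0.32). The genes that fell were Slit2 (-0.72, SE 0.141), Sema7a (-0.65) and Sema3d (-0.56), so that Slit2 and Slit3 went in opposite directions in this pair. With only the 6 arrays of the pair 6 members passed, against 3.75% of all genes, and Slit2 did not (adjusted p = 0.0899, limma). Without replicate 2 there were 7, against 4.27% of all genes.

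The FL pair compared the supportive AFT024 with the non-supportive BFC012, of 1 tissue, strain and age. The membrane semaphorin Sema5a and the secreted Slit2 showed the largest rises in AFT024, and the membrane-anchored ephrin Efna2 the largest fall. In this pair 25 members passed, 15 higher and 10 lower in AFT024, against 28.5% of all genes (15.6% higher, 12.9% lower), and 10 members passed with at least a 2-fold difference, against 5.26%. The medians were -0.00 over the members and -0.02 over all genes. Sema5a, a membrane semaphorin with thrombospondin repeats, read 9.46, 8.98 and 8.87 in AFT024 and 5.83, 6.27 and 6.18 in BFC012, an 8.04-fold difference (3.01 log2 units, SE 0.143, adjusted p = 3.56e-18, limma). Slit2, a Robo ligand, read 11.13, 10.93 and 10.83 against 7.84, 8.48 and 8.38, a 6.64-fold difference (2.73, SE 0.141). AFT024 was the line highest in Slit2 of its set, and BFC012 the lowest in Sema5a. The receptor Nrp2 rose by 1.65 (SE 0.13), from 8.37 ± 0.193 in BFC012 to 10.02 ± 0.164 in AFT024 (SD, n = 3 each). Ntn4, a netrin of basement membranes, rose by 1.19 (SE 0.0904) and Plxna2 by 1.13 (SE 0.158). The plexins as a family held 5 that rose, 0 that fell and 4 that did not pass, Plxnd1 (0.78), Plxna3 (0.73), Plxnb1 (0.42) and Plxna1 (0.30) being the others that rose. With each array centred on its median the counts were 5 and 1.

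Lower in AFT024 were an ephrin, an Eph receptor and 4 of the 7 class 3 semaphorins. Efna2, an ephrin-A ligand, read 6.64, 6.27 and 6.28 in AFT024 and 8.97, 8.24 and 8.80 in BFC012, a difference of -2.27 (SE 0.157). The receptor Epha4, which binds ephrins of both classes, read 7.35, 7.86 and 8.48 against 9.60, 9.42 and 9.002 (-1.44, SE 0.156). The arrays of both genes did not overlap between the lines, although Epha4 varied by over 1 unit within AFT024. Sema3d was at 5.03 ± 0.167 against 6.68 ± 0.643 (SD, n = 3 each; -1.65, SE 0.175), the BFC012 arrays reading 7.42, 6.31 and 6.29. Sema3a was lower as well (-1.40, SE 0.12), Sema3c fell by 1.00 (SE 0.178) and Sema3g fell by 0.32. Of the class 3 semaphorins only Sema3f rose in this pair (0.76, SE 0.192), while Sema3b and Sema3e did not pass. The netrin receptor Unc5b fell by 0.95 (SE 0.252), and did not pass without replicate 1 or 2 of both lines (adjusted p = 0.0619 and 0.0551, limma). Other members that passed were Sema6b (0.84), Efna3 (0.70), Sema6c (0.65), Efna4 (0.55) and Sema6a (0.32), which were higher in AFT024, and Sema4f (-0.55), Ntn3 (-0.49) and Sema4g (-0.32), which were lower. Beside these differences, Upk3b was at 11.18 in BFC012 and 6.39 in AFT024, and Wt1 at 9.03 and 6.81, while Msln, another mesothelial marker, was at 8.75 and 11.05. The mean over the 7 epithelial and mesothelial markers was 8.19 in BFC012 and 7.21 in AFT024, with 2 markers higher and 3 lower in AFT024, and Epcam was at 5.46 and 5.43, near the first quartile of 5.45. Of 9 mesenchymal markers 6 were higher and 1 lower in AFT024. The part of these markers in the guidance gene differences was not tested.

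The second FL pair compared the supportive 2012 with the non-supportive AFT011, other clones of the same tissue, strain and age. Slit2 and Slit3 rose in 2012 and 4 plexins fell, while membrane-bound cues went both ways. Of the members 30 passed, 15 higher and 15 lower in 2012, against 27.6% of all genes (13.4% higher, 14.1% lower), and 7 passed with at least a 2-fold difference, against 3.58%. With each array centred on its median 26 passed, 10 higher and 16 lower, against 25.3% of all genes. The count of 30 leaned on single arrays, and so did the share of all genes. It was 19 without 2012 replicate 1 and 18 without AFT011 replicate 3, against 19.8% and 20.3% of all genes. Without replicate 1 or 3 of both lines it was 15 or 16, against 17% and 19% of all genes. The median difference was 0.09 over the members and 0.07 over all genes. Sema3d showed the largest difference. It read 5.44, 5.24 and 5.26 in 2012 and 8.12, 8.19 and 8.19 in AFT011 (-2.85, SE 0.175, adjusted p = 5.38e-15, limma). AFT011 was the only line of its set with a Sema3d mean above 5.59. Sema6d was at 6.53 against 8.67 (-2.14, SE 0.15), Plxnd1 at 8.69 against 9.96 (-1.27, SE 0.174), Epha7 at 7.72 against 8.92 (-1.20, SE 0.174) and Ntn4 at 7.75 against 8.77 (-1.02, SE 0.0904). Slit2 read 10.76, 10.88 and 10.80 in 2012 and 9.13, 9.04 and 9.10 in AFT011 (1.72, SE 0.141), and Epha3, an EphA receptor, rose by 1.02 (SE 0.137). Of the 9 plexins 0 rose and 4 fell, Plxna2 (-0.83), Plxnb1 (-0.57) and Plxna4 (-0.49) beside Plxnd1; with centred arrays 5 fell. Among the membrane-bound cues, Sema5a (0.69), Efna3 (0.56), Sema7a (0.47), Sema6b (0.31) and Sema6a (0.27) rose, and Efnb2 (-0.67), Efna2 (-0.51) and Efnb1 (-0.50) fell beside Sema6d. Of the secreted cues Slit3 (0.97), Sema3c (0.56), Ntn1 (0.38), Ntn5 (0.26) and Sema3b (0.25) rose and Sema3e fell (-0.69). Among receptors Robo2 (0.37), Unc5c (0.36) and Robo4 (0.34) rose, and Nrp1 (-0.85), Unc5b (-0.84) and Epha4 (-0.68) fell. With centred arrays the rises of Ntn1, Ntn5, Sema7a and Unc5c did not pass, and only 1 class 3 semaphorin rose. Ntn1, Ntn5, Sema3b, Robo2 and Robo4 also did not pass the F-test over the lines of this set. Upk3b was at 6.76 in 2012 and 10.79 in AFT011, Wt1 at 7.25 and 10.40, and 4 of the 7 epithelial and mesothelial markers fell and 0 rose in 2012 (list means 7.09 and 8.44). Of the 9 mesenchymal markers 4 rose and 0 fell, Col1a2 being at 11.78 in 2012 and 7.37 in AFT011, and 2 of 6 neural markers fell. Their part in these differences was not tested.

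The difference between the FL pairs was tested directly, as the AFT024 minus BFC012 difference less the 2012 minus AFT011 difference. The 2 pairs share no array. Here 29 members passed, against 29.2% of all genes, 17 with a larger value in the first pair (15.6% of all genes) and 12 with a smaller one (13.6%). A difference of at least 2-fold was found for 14, against 7.43%. The plexins Plxnd1 and Plxna2 were higher in the supportive line of the first pair and lower in that of the second, and their differences between the pairs were 2.05 (SE 0.246) and 1.95 (SE 0.223). Ntn4 changed sides in the same way, by 2.21 (SE 0.128, adjusted p = 1.67e-15, limma). Slit2 rose in both supportive lines, by 2.73 and 1.72, and more in the first (1.01, SE 0.199). Sema3d fell in both (-1.65 and -2.85), and more in the second (1.21, SE 0.247). Unc5b fell in both (-0.95 and -0.84), and its difference between the pairs did not pass.

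The BM pair compared the supportive BMC9 with the less-supportive BMC10. Ephrins and Eph receptors made up 5 of the 9 members that passed with at least a 2-fold difference. In all 20 members passed, 13 higher and 7 lower in BMC9, against 15.5% of all genes (7.28% higher, 8.18% lower), with medians of 0.08 over the members and 0.03 over all genes. Of the 9 members at least 2-fold apart 6 were higher and 3 lower, against 2.37% of all genes at this size in either direction. Ephb6, an Eph receptor without kinase activity, read 9.35, 8.07 and 8.13 in BMC9 and 6.78, 6.996 and 6.47 in BMC10 (1.77, SE 0.181). The groups were apart although the first BMC9 array was more than 1 unit above the other two. Epha7 was at 8.26 against 6.76 (SE of the difference 0.174), Sema3e at 7.44 against 5.89 (1.55, SE 0.126) and the netrin receptor Unc5c at 8.48 against 7.33 (1.14, SE 0.123). The ephrin-A ligands Efna1 and Efna5 each rose by 1.01 (SE 0.122 and 0.13). Epha3 read 5.93, 5.34 and 5.43 in BMC9 and 8.22, 8.09 and 7.56 in BMC10 (-2.39, SE 0.137, adjusted p = 1.83e-15, limma). BMC10 stood alone here, since the other 5 lines of the set had Epha3 means of 5.18 to 5.57. Sema5a fell from 9.45 in BMC10 to 7.13 in BMC9 (-2.32, SE 0.143), the opposite side from the FL pair, and Slit3 from 9.75 to 8.30 (-1.44, SE 0.28). Other members that passed were Sema3f (0.96), Plxna2 (0.89), Plxnd1 (0.77), Ephb3 (0.68), Efnb1 (0.62), Efna2 (0.51) and Sema4g (0.39), which were higher in BMC9, and Unc5b (-0.87), Sema4b (-0.43), Ephb4 (-0.35) and Sema4c (-0.30), which were lower. With only the 6 arrays of the pair 10 members passed, against 6.5% of all genes. Of the 9 mesenchymal markers 6 rose and 0 fell in BMC9, and of the 7 epithelial and mesothelial markers 1 fell, Msln, at 7.79 in BMC9 and 10.64 in BMC10. Their part was not tested.

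OP9 and BFC differ in tissue, strain and labelled support, and mostly in culture temperature, which cannot be told apart. Here 22 members passed, 9 higher and 13 lower in OP9, against 34.4% of all genes (17.5% higher, 16.9% lower), and 8 passed with at least a 2-fold difference, against 6.18%. The medians were 0.04 over the members and 0.01 over all genes. Sema3c showed the largest difference of any member in the 5 pairs of confluent lines. It read 5.32, 5.37 and 5.28 in OP9 and 8.72, 8.75 and 8.72 in BFC, a 10.6-fold lower level (-3.40, SE 0.178, adjusted p = 4.06e-17, limma). The array labelled 33 °C, OP9 replicate 3, was within 0.1 of the other two. Robo1 was higher in OP9, at 7.22, 7.15 and 7.38 against 5.04, 4.998 and 4.75 (2.32, SE 0.136), as were Plxna2 (1.45, SE 0.158) and Sema5a (1.30, SE 0.143). Efnb2, the ephrin-B ligand of Ephb4, fell by 1.75 (SE 0.212), Sema3a by 1.67 (SE 0.12), Slit2 by 1.35 (SE 0.141) and Nrp2 by 1.31 (SE 0.13). Slit2 and Nrp2 were thus lower in this supportive line, and higher in AFT024, than in the non-supportive FL line beside them. The other rises were those of Sema7a (0.93), Plxnd1 (0.81), Efnb1 (0.78), Unc5c (0.76), Plxna1 (0.40) and Plxnb2 (0.26). The other falls were those of Slit3 (-0.90), Epha7 (-0.85), Efna5 (-0.80), Efna1 (-0.69), Sema3e (-0.60), Epha4 (-0.57), Efnb3 (-0.48) and Sema4a (-0.33). Upk3b read 5.31 in OP9 and 7.44 in BFC, 8 of 9 mesenchymal markers rose and 0 fell, and 4 of 7 epithelial and mesothelial markers fell and 0 rose. Their part was not tested.

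The 4 pairs from AGM, FL and BM were then set side by side. Of the 67 members 49 passed in at least 1 pair, 18 in none, and 17 rose in 1 pair and fell in another. No member passed in the same direction in all 4 pairs. In the single pairs 8.56% to 28.5% of all genes passed. Shares of all genes for these counts over the pairs were not computed, so the counts describe the members only. In at least 3 pairs 4 members (5.97%) passed in 1 direction, against 480 (2.41%) of all genes. Sema3f was higher in the supportive line by 1.00 in the AGM pair, 0.76 in the FL pair and 0.96 (SE 0.192) in the BM pair; its 0.33 in the second FL pair did not pass (adjusted p = 0.207, limma), but did with only the arrays of that pair (adjusted p = 0.00860, limma). In the BM pair the Sema3f call was lost with only the arrays of that pair (adjusted p = 0.104, limma). Unc5c was higher by 0.43 (AGM), 1.14 (BM) and 0.36 (second FL pair), with -0.16 in the FL pair. Its AGM value did not pass without replicate 1, 2 or 3 of both lines (adjusted p = 0.0504, 0.266 and 0.0993, limma). Its value in the second FL pair did not pass without replicate 1 or 3 (adjusted p = 0.143 and 0.260, limma). With centred arrays that value did not pass either (adjusted p = 0.0542, limma). Sema3d was at -0.56, -1.65 and -2.85 in the AGM pair and the 2 FL pairs, and at 0.09 in the BM pair. The AGM value of Sema3d had an adjusted p = 0.0409 (limma), and 0.162 with only the arrays of that pair. Without replicate 1 or 2 of both lines its adjusted p was 0.482 or 0.0794 (limma). Unc5b, the other netrin receptor of the 4, was at -0.95, -0.87 and -0.84 in the FL, BM and second FL pairs. Its -0.31 in the AGM pair did not pass. The second FL value of Unc5b did not pass without replicate 1 or 3 of both lines (adjusted p = 0.112 and 0.108, limma). In BMC9 the Unc5b arrays read 7.91, 9.55 and 9.14 and in BMC10 9.11, 9.79 and 10.31, so the groups overlapped, and with only these 6 arrays the adjusted p was 0.322 (limma).

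**Figure D3:**
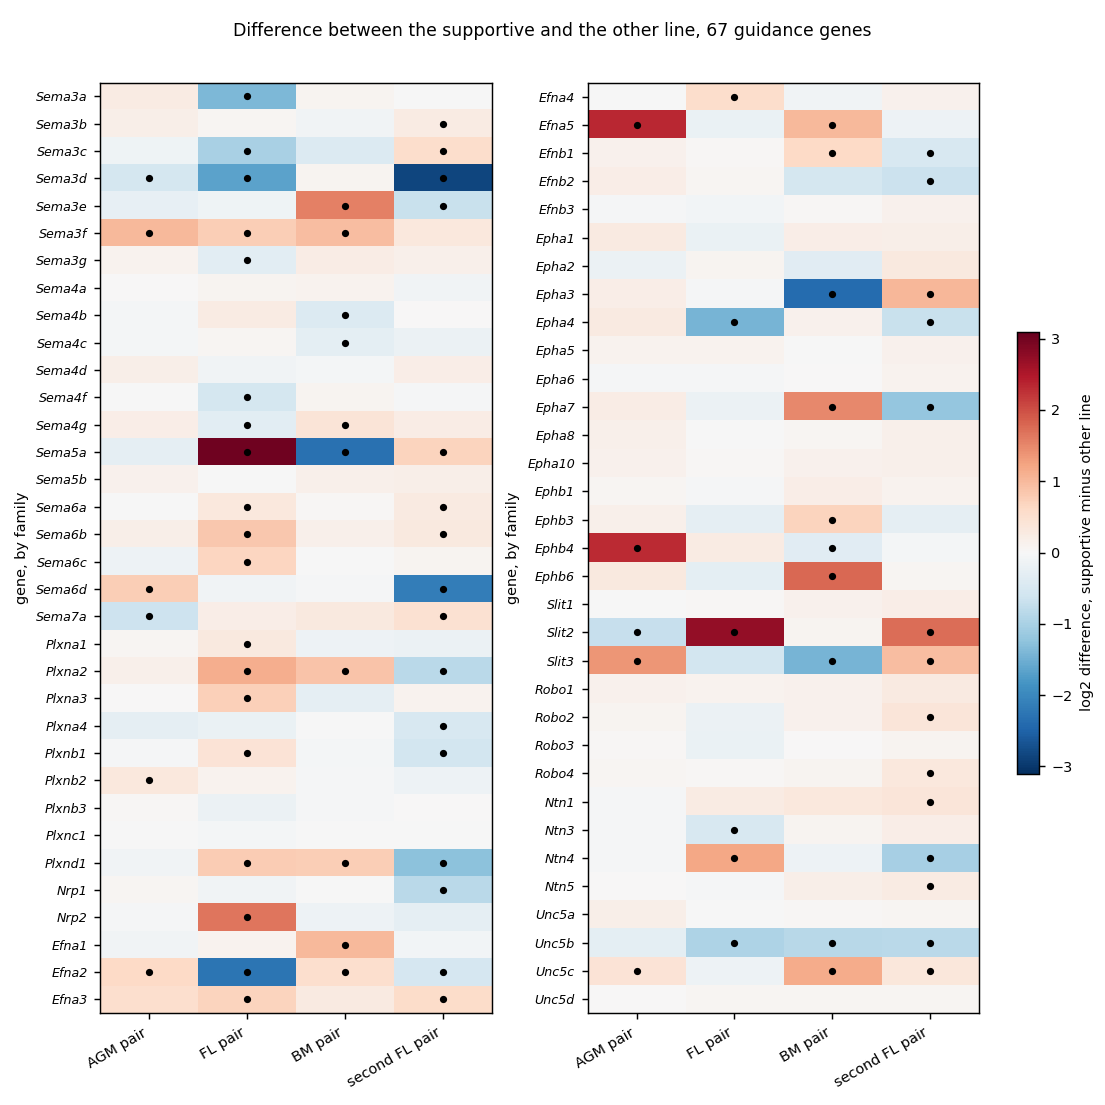
Log2 difference, supportive minus other line, of the 67 guidance genes (rows, grouped by family over 2 panels) in the AGM, FL, BM and second FL pairs (columns). Red is higher and blue lower in the supportive line, and a dot marks a gene that passed limma's test. Sema3f, Unc5c, Sema3d and Unc5b have 3 dots of 1 colour, and Sema5a, Slit2, Slit3 and Plxnd1 have dots of both colours.

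Sorted stroma gave a second look at the FL pair on other arrays. Without KLS cells 6 members passed between AFT024 and BFC012, 3 higher and 3 lower in AFT024, against 7.32% of all genes (3.51% higher, 3.81% lower). All 6 had passed in the confluent cultures on the same side. Nrp2 (1.44, SE 0.176), Sema5a (1.22, SE 0.12) and Ntn4 (0.44, SE 0.0963) were higher in AFT024. Sema3c (-1.39, SE 0.354), Epha4 (-0.95, SE 0.19) and Sema3d (-0.56) were lower. Sema5a read 6.21, 5.90 and 6.16 in AFT024 and 4.69, 4.88 and 5.02 in BFC012, and Nrp2 7.91, 7.92 and 8.03 against 6.26, 6.63 and 6.66. These arrays did not overlap between the lines. Of the 25 members that passed in confluent cultures 19 did not pass here, and 0 members passed in sorted stroma only. With the replicate number as a block in the fit to all 12 sorted arrays 7 members passed, against 8.04% of all genes: Sema3a (-1.65) and Slit3 (-1.32) were added and Sema3d was lost (adjusted p = 0.0576, limma). With the block and only the 6 arrays of the pair 11 passed, against 15.8% of all genes, 5 higher and 6 lower, adding Slit2 (2.36), Plxna2 (0.67), Sema3a, Slit3 and Efna5 (-0.45). Without replicate 1 in all 4 sorted groups 19 passed, 5 higher and 14 lower, against 19.3% of all genes. The count was 2 without replicate 2 or replicate 3 of both lines, against 1.6% and 1.56% of all genes. It was 3 without AFT024 replicate 2, AFT024 replicate 3 or BFC012 replicate 2 of these groups, against 3.91%, 3.76% and 3.97%. Without BFC012 replicate 1 it was 10, against 11.2% of all genes. Sema3c did not pass without any 1 of these arrays other than BFC012 replicate 1 (adjusted p from 0.0817 to 0.143, limma). Ntn4 did not pass with only the 6 arrays of the pair (adjusted p = 0.0723, limma). It was also lost without AFT024 replicate 2, AFT024 replicate 3 or BFC012 replicate 2 (adjusted p from 0.0501 to 0.0789, limma). Without replicate 2 or 3 of both lines Ntn4 (adjusted p = 0.161 and 0.138, limma) and Epha4 (adjusted p = 0.103 and 0.0699, limma) did not pass. Upk3b was at 8.13 in BFC012 and 5.63 in AFT024, Wt1 at 7.21 and 5.91, and 3 of the 7 epithelial and mesothelial markers fell and 0 rose in AFT024. Of the 9 mesenchymal markers 3 rose and 0 fell. Their part was not tested.

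**Figure D4:**
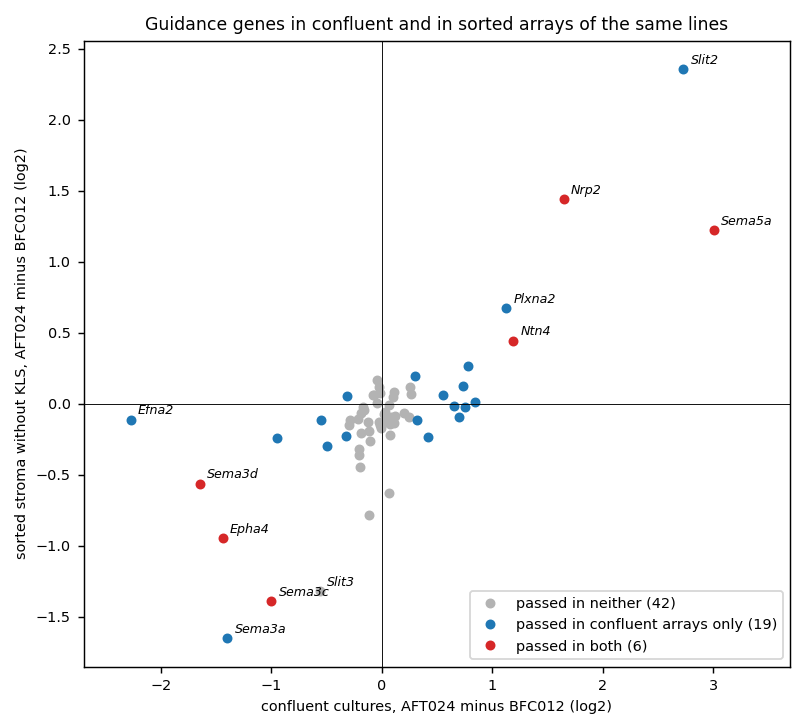
Each point is 1 of the 67 guidance genes, placed by the log2 difference AFT024 minus BFC012 in confluent cultures (x axis) and in sorted stroma grown without KLS cells (y axis). Red genes passed limma's test in both (6), blue in confluent cultures only (19) and grey in neither (42). Sema5a lies at 3.01 and 1.22, and Slit2 at 2.73 and 2.36.

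The start-site sequences of these 6 genes are shown because they are the members whose AFT024 to BFC012 difference passed in both kinds of culture. Each is the 250 bases before the first listed start of the gene in RefSeq (build GRCm38.p6), 5′ to 3′ on the gene's strand. Capitals mark matches on either strand to TATAAA (the TATA box), GGGCGG (the GC box bound by Sp1 family factors) and CCAAT (the CCAAT box), which can run together where matches overlap.
Sema5a (chr15:32244563-32244812, + strand): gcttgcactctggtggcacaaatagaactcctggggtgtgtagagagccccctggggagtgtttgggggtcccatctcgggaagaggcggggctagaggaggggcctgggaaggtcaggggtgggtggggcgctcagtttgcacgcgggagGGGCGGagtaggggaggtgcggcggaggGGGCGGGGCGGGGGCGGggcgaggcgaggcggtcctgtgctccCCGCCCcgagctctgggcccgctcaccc
Nrp2 (chr1:62703067-62703316, + strand): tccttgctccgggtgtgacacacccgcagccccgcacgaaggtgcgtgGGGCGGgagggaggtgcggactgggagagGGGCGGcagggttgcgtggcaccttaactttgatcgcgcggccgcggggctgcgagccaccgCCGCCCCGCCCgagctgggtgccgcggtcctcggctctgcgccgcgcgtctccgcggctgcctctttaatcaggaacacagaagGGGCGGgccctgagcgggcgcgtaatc
Ntn4 (chr10:93640799-93641048, + strand): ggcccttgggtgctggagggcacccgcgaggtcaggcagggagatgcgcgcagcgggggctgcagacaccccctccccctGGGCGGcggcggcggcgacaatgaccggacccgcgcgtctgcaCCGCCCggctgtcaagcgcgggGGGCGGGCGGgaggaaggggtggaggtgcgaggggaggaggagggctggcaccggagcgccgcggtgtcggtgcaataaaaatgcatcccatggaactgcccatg
Epha4 (chr1:77515089-77515338, - strand): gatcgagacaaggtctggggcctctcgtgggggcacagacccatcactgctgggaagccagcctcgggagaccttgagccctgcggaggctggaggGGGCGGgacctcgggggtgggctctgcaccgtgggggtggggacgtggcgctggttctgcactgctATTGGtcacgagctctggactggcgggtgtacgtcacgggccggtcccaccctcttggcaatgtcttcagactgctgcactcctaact
Sema3c (chr5:17574566-17574815, + strand): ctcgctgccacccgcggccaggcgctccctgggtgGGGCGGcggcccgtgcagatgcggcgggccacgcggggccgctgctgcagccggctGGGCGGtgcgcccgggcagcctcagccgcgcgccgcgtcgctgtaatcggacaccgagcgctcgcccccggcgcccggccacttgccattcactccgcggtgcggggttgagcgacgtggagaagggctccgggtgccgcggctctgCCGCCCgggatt
Sema3d (chr5:12382916-12383165, + strand): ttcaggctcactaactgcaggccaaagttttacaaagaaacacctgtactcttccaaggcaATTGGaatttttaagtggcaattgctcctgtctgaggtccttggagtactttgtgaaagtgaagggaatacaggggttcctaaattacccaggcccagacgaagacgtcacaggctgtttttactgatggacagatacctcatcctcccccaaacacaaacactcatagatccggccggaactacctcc
The windows of Sema5a, Nrp2, Ntn4 and Sema3c hold 5, 5, 4 and 3 GC boxes, that of Epha4 holds 1 GC box and 1 CCAAT box, and that of Sema3d holds 1 CCAAT box and no GC box. None of the 6 holds TATAAA. Sema3d also differs in base composition, with 46.8% G and C and 4 CG pairs, against 66.0% to 78.4% and 14 to 39 CG pairs in the other 5. Of all windows that RefSeq lists for the mouse, 32851 in number, 32.7% hold GGGCGG, 33.8% CCAAT and 12.4% TATAAA, with a median of 52.4% G and C. The 74 windows of the 58 members found there hold these motifs in 71.6%, 25.7% and 2.7%, with a median of 64.4% G and C. A match is a description of the letters and not a site of binding.

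With KLS cells in the culture 8 members passed between the sorted lines, against 11.6% of all genes (6.09% higher, 5.52% lower), 4 higher and 4 lower in AFT024. Nrp2 (2.07, SE 0.176), Slit2 (3.07, SE 0.794), Sema5a (0.86) and Plxna1 (0.40) were higher, and Sema3a (-2.28, SE 0.472), Nrp1 (-2.06, SE 0.3), Sema3c (-1.63, SE 0.354) and Sema3d (-0.58) were lower. Nrp1 read 8.71, 7.99 and 7.60 in AFT024 and 10.01, 10.22 and 10.25 in BFC012. The neuropilins thus lay on opposite sides here, Nrp2 with the supportive line and Nrp1 with the non-supportive one. Between the same lines Nrp1 did not pass in confluent cultures (-0.11) or in sorted stroma without KLS cells (-0.19). Slit2 rested on arrays that disagreed, with 5.498, 9.15 and 9.07 in AFT024 and 5.08, 4.75 and 4.67 in BFC012. Its adjusted p of 0.0287 became 0.0593 with only the arrays of the pair and 0.0636 when the replicate block was added to that fit, and it passed with the block in the fit to all 12 sorted arrays (limma). Slit2 was also lost without AFT024 replicate 2 or 3 or any 1 BFC012 array (adjusted p from 0.0752 to 0.114, limma). Sema3a did not pass without replicate 1, 2 or 3 of both lines (adjusted p = 0.0752, 0.0820 and 0.0738, limma). For Sema3c the call was lost without replicate 1 or 2 of both lines (adjusted p = 0.0710 and 0.0582, limma) or BFC012 replicate 1 (adjusted p = 0.0598, limma). Without replicate 1 in all 4 sorted groups 18 members passed, 8 higher and 10 lower, against 23.8% of all genes. The count was 3 or 4 without replicate 2 or 3 of both lines, against 4.38% and 4.91% of all genes. It was 4 without BFC012 replicate 1 and 5 without BFC012 replicate 3, against 6.93% and 7.73%. Upk3b was at 7.002 in BFC012 and 5.53 in AFT024 of these groups, and Wt1 at 7.31 and 5.94, while Krt8 was at 7.16 and 7.70. Of the 7 epithelial and mesothelial markers 1 was higher and 2 were lower in AFT024, and of the 9 mesenchymal markers 2 were higher and 0 lower. Their part was not tested.

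The last question was whether KLS cells changed guidance genes in the stroma. In AFT024 0 members passed with limma, against 0.351% of all genes, and 8 had an unadjusted p below 0.05 (11.9%, against 9.25% of all genes). The smallest p-values were those of Sema5a (5.40, 5.498 and 5.70 with and 6.21, 5.90 and 6.16 without KLS cells; -0.56, SE 0.12, adjusted p = 0.0943), Epha4 (-0.68, SE 0.19, adjusted p = 0.197), Ephb4 (-0.32, SE 0.0896, adjusted p = 0.199) and Sema3c (-1.11, SE 0.354, adjusted p = 0.27). For each of them the arrays with KLS cells read below those without, and groups that did not overlap were found for 14.5% of all genes. In BFC012 1 member passed, against 0.883% of all genes, and 11 had an unadjusted p below 0.05 (16.4%, against 10.2% of all genes). Epha4 fell from 7.64, 7.44 and 7.35 to 6.55, 6.57 and 6.34 (-0.99, SE 0.19, adjusted p = 0.0397, limma), and the groups were more than 0.7 apart. This call did not hold without any 1 of the 6 BFC012 arrays (adjusted p from 0.0620 to 0.175, limma). Sema4c (-0.37, adjusted p = 0.0812), Epha2 (-0.70, adjusted p = 0.122) and Nrp1 (1.02, adjusted p = 0.203) came next and did not pass. Hematopoietic markers were flat on average beside these values. Their mean over the 10 genes was 4.56 and 4.59 in AFT024 without and with KLS cells and 4.52 and 4.62 in BFC012. Single markers moved more, Lyz2 from 3.91 to 4.73 in BFC012 and Cd53 from 4.92 to 4.41 in AFT024. In either line 0 of 10 passed.

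The arrays numbered 1 had much weight in these comparisons. Slit2 in AFT024 read 8.69, 9.68 and 9.61 without and 5.498, 9.15 and 9.07 with KLS cells, and in BFC012 6.17, 7.40 and 7.35 without and 5.08, 4.75 and 4.67 with them. In BFC012 all 3 arrays with KLS cells were thus below all without, and the difference of -2.14 (SE 0.794) did not pass (adjusted p = 0.353, limma). Leaving out the arrays numbered 1 in all 4 groups, an alternative chosen after seeing the data, gave 8 members in AFT024, all lower with KLS cells, against 6.06% of all genes, and 14 in BFC012, 2 higher and 12 lower, against 7.9% of all genes. Under this alternative Slit2 fell by 2.67 in BFC012 (SE 0.0952) and by 0.54 in AFT024, and Epha7 by 1.42 and 0.93. Sema3c, Sema3a and Epha4 fell in both lines too. Nrp1 rose by 0.80 in BFC012 and fell by 1.36 in AFT024.

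Whether the lines responded differently was tested by the interaction, the AFT024 response less that of BFC012. With all 12 arrays 0 members passed with limma, against 0.0401% of all genes, and 2 had an unadjusted p below 0.05 (2.99%, against 7.85% of all genes). These were Nrp1 (-1.87, SE 0.424, adjusted p = 0.215) and Nrp2 (0.63, SE 0.248, adjusted p = 0.556). Sema5a (-0.36) and Epha2 (0.52) followed. Without the arrays numbered 1 there were 4, Nrp1 (-2.17), Slit2 (2.13), Efnb2 (1.28) and Epha2 (0.75), against 2.95% of all genes.

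**Figure D5:**
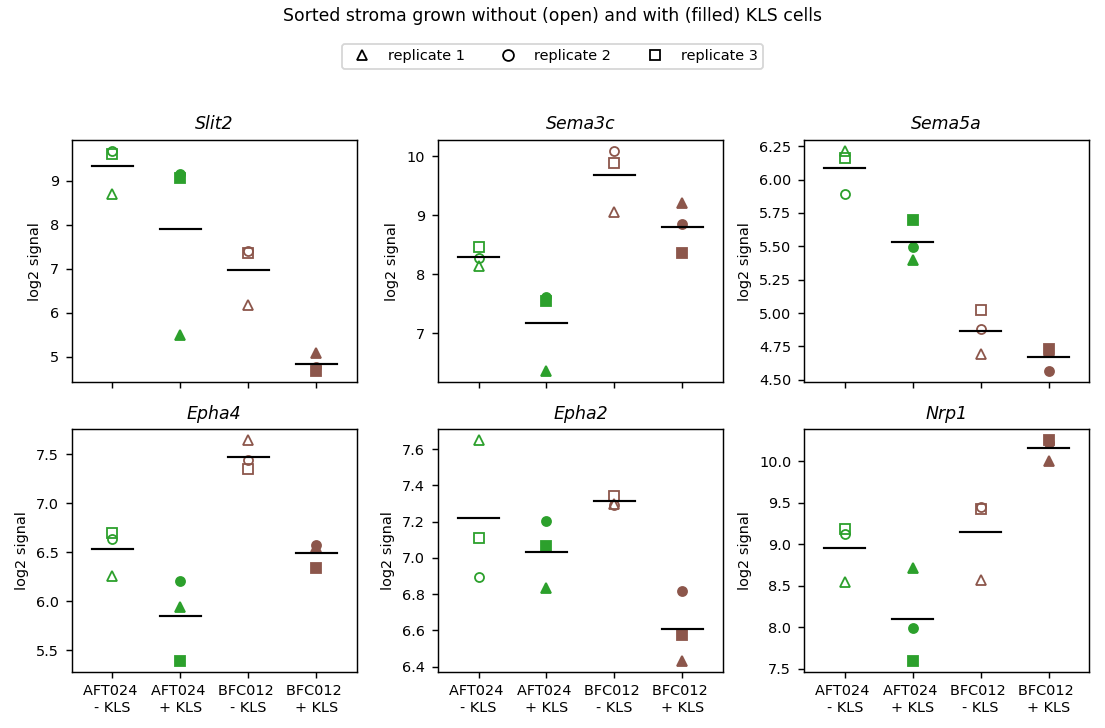
Log2 signal in sorted stroma of AFT024 (green) and BFC012 (brown) grown without (open) and with (filled) KLS cells, for 6 guidance genes. Each symbol is 1 array, its shape gives the replicate number, and bars are group means. Epha4 in BFC012 falls from a mean of 7.48 to 6.49, and the Slit2 array numbered 1 in AFT024 with KLS cells, at 5.498, lies far below the other two.

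The guidance pathway genes beyond these families were followed in a list of 63 co-receptors, effectors and GTPase regulators, of which 60 were measured. In the FL pair 19 rose in AFT024, 11 fell and 30 did not pass, where 15.6% of all genes rose and 12.9% fell. Chn1 and Chn2 encode alpha- and beta-chimaerin, GTPase-activating proteins for Rac that act below Eph receptors. They moved in opposite directions, Chn1 by 2.87 (SE 0.107) and Chn2 by -2.80 (SE 0.0848). L1cam, an adhesion molecule that can partner neuropilin 1, rose by 2.35 and Crmp1, a cytosolic mediator of semaphorin signals, by 1.75. In sorted stroma without KLS cells 4 rose and 6 fell (3.51% and 3.81% of all genes), with Chn2 at -2.40, Chn1 at 1.62, the Slit-Robo GTPase-activating protein Srgap3 at 1.70 and the exchange factor Vav3 at -1.53. With KLS cells present 6 rose and 7 fell (6.09% and 5.52% of all genes), with Chn2 at -2.95, Vav3 at -1.79, Srgap3 at 1.73 and Adam10, a protease that cleaves ephrins, at -1.79.

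In the second FL pair 6 rose in 2012 and 20 fell (13.4% and 14.1% of all genes), led by Chn2 (-4.01, SE 0.0848), the VEGF receptor Flt1 (-1.78), Srgap1 (-1.57) and the actin-oxidising enzyme Mical2 (-1.49). Chn2 was therefore lower in the supportive line of both FL pairs. It was also lower in OP9 than in BFC (-2.24), where 17 rose and 14 fell (17.5% and 16.9% of all genes) and where Chn1 (2.50), Vav3 (-1.95) and Srgap3 (1.56) were the others with the largest differences. In the AGM pair 7 rose and 6 fell in UG26.1B6 (4.34% and 4.22% of all genes), all by less than 2-fold, with Dpysl3 (0.90), a relative of Crmp1, the exchange factor Farp1 (0.72), the plexin-binding GTPase Rnd1 (-0.71) and the phosphatase Ptpn13 (0.69) in front. In the BM pair 6 rose and 15 fell in BMC9 (7.28% and 8.18% of all genes), and Dpysl3 (-1.31), Chn1 (-1.27) and Ptpn13 (-0.92) fell while the adaptor Nck2 rose (1.00). In response to KLS cells 0 of the 60 passed with limma in AFT024, against 0.351% of all genes. Of the 60, 8 had an unadjusted p below 0.05 there, against 9.25% of all genes. In BFC012 2 rose and 1 fell, where 0.883% of all genes passed: Flt1 by 1.07, Adam10 by 0.75 and Enah, an actin regulator, by -0.48. Adam10 was the only one of the 60 that passed the interaction, against 0.0401% of all genes. It fell by 1.00 in AFT024 relative to BFC012 (SE 0.134, adjusted p = 0.0367, limma). With the replicate number as a block, no gene passed the interaction, so this call was lost.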

How the data were processed

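RNA of confluent cultures and sorted stroma was measured on 51 Affymetrix mouse gene 1.0 ST arrays, from 100 ng of RNA each. The deposited values are log2 signals of 35556 probe sets, which the authors had normalized: RMA and Partek are the tools that the submitters' processing notes name, and their versions, settings and order are not given in the sources used here. Quantiles matched within 4 sets of arrays and differed between them, so levels were compared within a set. Normalization within a set sets the values relative to the other arrays of it. Probe sets were named through GEO's platform annotation: 21789 had 1 symbol, 1621 several and 12146 none. Where several named 1 gene (999 genes), that of highest mean signal stood for it. All 67 members matched a RefSeq gene of the same symbol.

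limma 3.58.1 (lmFit and eBayes, R 4.3.3) was fitted once to the 39 confluent arrays and once to the 12 sorted arrays, with 1 mean for each group, no covariate and no filter, and p-values were adjusted over 19938 genes. The limma steps were run on data simulated for the AGM pair and the AFT024 response to KLS cells. The simulated noise was independent between arrays, so this did not cover arrays that deviate together. Members were named where they passed with a difference of at least 2-fold, or, where fewer than 4 did, as the 4 with the smallest p, or where they passed in 1 direction in at least 3 of the 4 AGM, FL and BM pairs; others that passed in a pair are listed with their values. Sema4f, Plxna4 and further genes with line-specific levels were chosen after their values were seen. The members, gene lists and tests were chosen with earlier results of these data known. Alternatives were a fit to only the arrays compared, centring on array medians, leaving out dim genes, the mean of probe sets, limma's trend and robust prior, the replicate number as a block (with all arrays or only those compared), and leaving out arrays. Same-numbered arrays deviated together in the AGM pair (correlations 0.327 to 0.535), the BM pair (0.116 to 0.435) and sorted stroma without KLS cells (0.466 to 0.671). The highest correlations of differently numbered arrays there were 0.103, 0.194 and 0.501. In the BM pair and sorted stroma these were above the lowest same-numbered values, so pairing by number is clear only in the AGM pair. In no other comparison were all 3 same-numbered correlations over 0.1. Arrays carry no read depth, and their number limits the precision. Promoter windows came from RefSeq. Every sample was used.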

Additional observations from a re-analysis of the deposited data

Results flagged for a closer look

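For 14 members the difference between supportive and other line was itself at least 2-fold different between the FL pair (AFT024 minus BFC012) and the second FL pair (2012 minus AFT011), by the limma contrast of both differences, and this difference is what singled them out. Positive values mean a larger value in the first pair. They were 2.32 for Sema5a, 2.21 for Ntn4, 2.05 for Plxnd1, 2.03 for Sema6d, 1.95 for Plxna2, 1.93 for Nrp2, 1.21 for Sema3d, 1.03 for Epha7 and 1.01 for Slit2. Negative values were those of Efna2 (-1.76), Sema3c (-1.56), Slit3 (-1.53), Sema3a (-1.39) and Epha3 (-1.06). Adjusted p ranged from 1.67e-15 for Ntn4 to 0.00305 for Slit3 (limma). Ntn4, Plxna2, Plxnd1 and Sema3c passed in both pairs on opposite sides.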

How the results depend on the processing

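Of 1256 recomputed values of named members, 1176 kept their direction and their side of the threshold, 69 lost the threshold, 11 gained it and 0 changed direction. Counts of members that passed fell with only the arrays compared, to 6 in the AGM pair and 10 in the BM pair (3.75% and 6.5% of all genes). That fit gave 2 for the BFC012 response to KLS cells (0.592% of all genes). In the fits to all arrays the replicate block gave 7 in sorted stroma without KLS cells, 11 in the AGM pair and 21 in the BM pair. The shares of all genes were 8.04%, 9.08% and 15.8%. With the block and only the arrays compared, 11, 13 and 17 passed (15.8%, 11.1% and 10.6% of all genes), and no other count moved by more than 1.5 times. Leaving out arrays gave 7 to 11 in the AGM pair, 15 to 35 in the second FL pair, 2 to 19 in sorted stroma without and 3 to 18 with KLS cells. For the KLS responses it gave 0 to 8 in AFT024, 0 to 14 in BFC012 and 0 to 4 for the interaction. The upper ends of the sorted ranges came without replicate 1 in all 4 groups, apart from the interaction, where leaving out replicate 1 by either route gave 4. Fewer arrays enter each of these fits; the cause of the rises was not tested. In every other comparison all alternatives stayed within 1.5 times of the count given. Probe sets near the first quartile, such as Epha5 and Epha6, limit what can be seen for those genes.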
